A study of Rattus norvegicus with 16 samples.

Results

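The receptors that bind the constant part of antibodies, their Fc-like relatives and the sialic acid receptor Siglec5 were followed across the femurs of 4 inbred rat strains. The members were all probe sets whose only platform symbol was Fcgr1a, Fcgr2b, Fcgr3a, Fcer1a, Fcer1g, Fcrla, Fcrl2, Fcgrt or Siglec5. They came to 10 probe sets of 9 genes, 2 of them for Fcrla, among 14217 genes and 31042 probe sets that were not array controls. All 10 were among the 18625 probe sets that passed a filter on low signals. Fcer1a passed narrowly, with a geometric mean signal of 179 over the 16 arrays against a filter at 174. The genes were chosen by family, with earlier results of these data known, and the rule does not say which signals weighed in the choice. The Fischer 344 and Lewis signals were treated as those the genes were selected on, since differences of Siglec5 and Fcrl2 between these strains were among the largest known. Differences of the members between those strains, and between either of them and the remaining strains, are therefore given as descriptions with no test. The tests between the remaining strains assume that their signals had no part in the choice.

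RNA came from the proximal femur of rats aged 4 weeks, and the study looked for expression differences behind a bone trait locus mapped in crosses of Fischer 344 and Lewis rats. The strains were Fischer 344 (F344), Lewis (LEW), Copenhagen 2331 (COP) and Dark Agouti (DA), with 4 arrays each. The labels named no treatment, sex or genetic alteration for any strain, and did not say whether the 4 arrays of a strain came from separate animals, so p-values measured only the spread between arrays. Signals were linear MAS5 intensities, which serve to compare 1 probe set between arrays and not 1 probe set with another. Array medians lay between 303 and 325, and no pair of arrays held identical values. The bone markers Col1a1 and Bglap had signals of at least 56190 and 48771 on every array. Blood cell markers were also present: the B cell gene Cd79b ranged between 1088 and 2793, the macrophage gene Csf1r between 2290 and 3581, and the mast cell gene Cpa3 between 742 and 1686. The T cell gene Cd3e and the natural killer cell gene Ncr1 stayed at 149 or below and 134 or below and did not pass the filter. Cd3g and Nkg7, also defining markers of these cells, did pass it, at 457 to 1835 and 2158 to 4900. Bone and marrow cell markers were thus measured together, and in such bulk RNA fewer cells of a type and less RNA per cell cannot be told apart. Every member except Fcrla was read by 1 probe set. Whether the strains differ in sequence under the probes, which can change a signal, was not tested.

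Fc receptors let leukocytes sense antibody that has bound its target. Activating receptors such as Fcgr1a, Fcgr3a and Fcer1a signal through the adaptor Fcer1g, whose ITAM motif recruits the kinase Syk. Fcgr2b carries an inhibitory ITIM motif instead and recruits the phosphatase Inpp5d (SHIP1). Fcgrt, the neonatal Fc receptor, stands apart: it pairs with beta-2-microglobulin and returns IgG and albumin to the circulation. In marrow these genes are carried by monocytes, macrophages, granulocytes, mast cells and B cells.

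The promoters of Siglec5, Fcgr3a and Fcrla are shown because at least 1 probe set of each separated 1 strain from the other 3. Fcer1g and Fcgr2b did so too, but no RefSeq window was matched for them. The sequences are RefSeq's, from the GRCr8 assembly, and run 5′ to 3′ from 250 bases before to 50 bases after the annotated start. Capitals mark TTCCTC, the reverse complement of GAGGAA, the core letters bound by PU.1, a transcription factor of myeloid and B cells. The Siglec5 window lies at chr1:102904656-102904955 on the plus strand, the Fcgr3a window at chr13:85782386-85782685 on the plus strand and the Fcrla window at chr13:85702777-85703076 on the minus strand.
Siglec5: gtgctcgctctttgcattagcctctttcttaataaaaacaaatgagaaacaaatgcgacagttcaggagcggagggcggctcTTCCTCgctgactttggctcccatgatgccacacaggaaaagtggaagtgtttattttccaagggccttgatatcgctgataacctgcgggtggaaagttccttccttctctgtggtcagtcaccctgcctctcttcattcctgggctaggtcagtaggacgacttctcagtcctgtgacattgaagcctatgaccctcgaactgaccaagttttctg
Fcgr3a: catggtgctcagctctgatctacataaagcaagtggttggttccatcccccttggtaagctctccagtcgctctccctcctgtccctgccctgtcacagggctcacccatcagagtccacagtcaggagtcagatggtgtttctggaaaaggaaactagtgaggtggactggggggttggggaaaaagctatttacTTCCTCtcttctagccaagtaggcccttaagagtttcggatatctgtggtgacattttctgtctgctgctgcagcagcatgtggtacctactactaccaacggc
Fcrla: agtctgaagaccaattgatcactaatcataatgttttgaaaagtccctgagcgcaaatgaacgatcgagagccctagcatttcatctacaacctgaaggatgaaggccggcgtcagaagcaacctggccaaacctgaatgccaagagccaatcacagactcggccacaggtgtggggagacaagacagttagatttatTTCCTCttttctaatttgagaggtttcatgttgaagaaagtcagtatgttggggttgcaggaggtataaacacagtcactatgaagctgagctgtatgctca
The match began 168 bases before the start in Siglec5, 54 bases before it in Fcgr3a and 52 bases before it in Fcrla. Both strands were searched, and 27.6% of 33469 promoters of this length held the letters, so a match is a description and not a binding site. RefSeq windows were matched for 5 of the 9 members. Of these 5, Fcgrt held GAGGAA at 225 and at 158 bases before its start, and Fcer1a did not hold it. The GATA letters AGATAA were in the Fcer1a window and in 11.6% of all promoters. The letters TTCNNNGAA, of the gamma-activated kind, were in the Fcgrt window and in 8.9% of all promoters.

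Siglec5 was low in LEW and high in the other strains. In humans SIGLEC5 is an inhibitory receptor of myeloid cells that binds sialic acids. Its probe set 1385465_at read 918, 853, 713 and 824 on the F344 arrays, against 141, 135, 102 and 168 on the LEW arrays. COP arrays read 791, 960.2, 848 and 846, against 618, 697, 798 and 864 on DA arrays. All 4 LEW arrays lay below the lowest array of every other strain, while the F344, COP and DA arrays overlapped one another. Mean signals were 827 ± 85.6 for F344, 136 ± 27.2 for LEW, 861 ± 71.1 for COP and 744 ± 108 for DA (SD over 4 arrays of a strain). The F344 mean was 6.06-fold the LEW mean, and F344 minus LEW was 2.62 on the log2 scale (SE 0.14). All 4 LEW arrays were below the filter signal of 174, so the size of this fold rests on a low denominator. LEW minus COP was -2.68 and LEW minus DA was -2.46 on the same scale. COP minus DA was 0.22 (SE 0.14) with a limma adjusted p of 0.357, and this difference did not pass the test.

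Fcrl2 split the strains otherwise, being high in F344 and COP and low in LEW and DA. The rat gene is also listed as Fcrls and Msr2. In mice Fcrls is a scavenger-like Fc receptor relative of microglia. Probe set 1395126_at read 1101, 874, 1029.9 and 969 on F344 arrays, against 165, 168, 269.8 and 309 on LEW arrays. It read 1003, 849.6, 612 and 676 on COP arrays, against 258, 228, 233 and 311 on DA arrays. Neither high strain overlapped a low one; F344 overlapped COP, and LEW overlapped DA. Mean signals were 994 ± 96.2 for F344, 228 ± 72.9 for LEW, 785 ± 176 for COP and 257 ± 37.8 for DA (SD over 4 arrays of a strain). COP exceeded DA by 3.05-fold, or 1.59 on the log2 scale (SE 0.19), which passed limma's test with an adjusted p of 5.43e-06. F344 minus LEW was 2.18 (SE 0.19) and F344 minus DA was 1.95, both on the log2 scale. The LEW readings of 165 and 168 were below the filter signal of 174, so the size of F344 minus LEW rests on low signals.

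**Figure D1:**
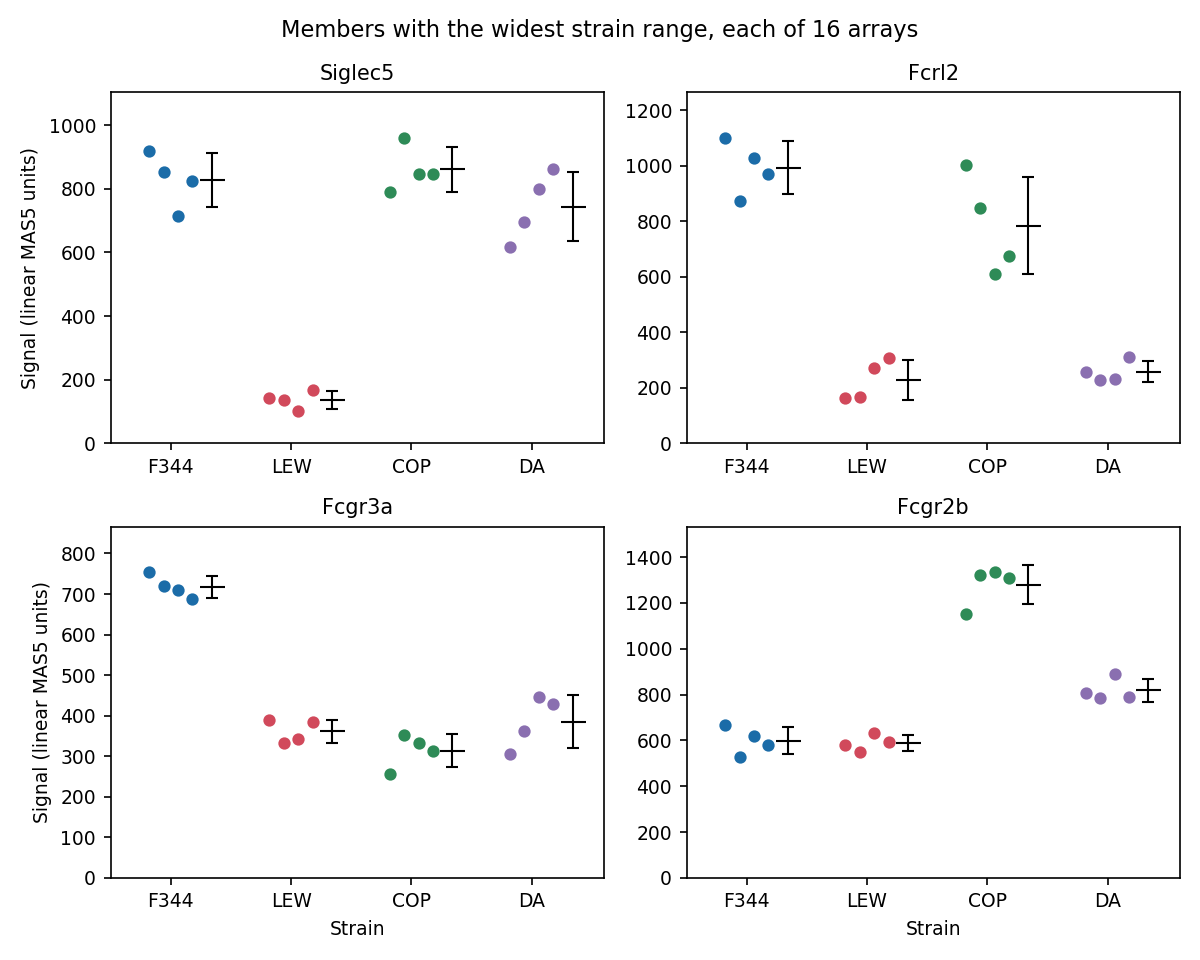
Signals in linear MAS5 units (vertical axes, from 0) of members that varied between strains, with each array as a point and the mean and SD of 4 arrays per strain (F344, LEW, COP, DA on the horizontal axes). Siglec5 was low on all 4 LEW arrays (102 to 168), Fcrl2 was low in LEW and DA, Fcgr3a was high in F344 (688 to 753) and Fcgr2b was high in COP (1154 to 1333).

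Among the activating IgG receptors, Fcgr3a was high in F344 alone. The rat gene is also listed as Fcgr4 and CD16-2. In mice that receptor is found on monocytes, macrophages and neutrophils. Probe set 1373523_at read 753, 719.7, 711 and 688 on F344 arrays, against 389, 332, 342 and 383 on LEW arrays. The COP arrays read 257, 353, 333 and 312, against 305, 361, 447 and 428 on DA arrays. The lowest F344 array exceeded the highest array of the other strains, and LEW, COP and DA overlapped one another. Means were 718 ± 27.1 for F344, 361 ± 28.6 for LEW, 314 ± 41.4 for COP and 385 ± 65.1 for DA (SD over 4 arrays of a strain). F344 minus LEW was 0.99 (SE 0.13), F344 minus COP 1.20 and F344 minus DA 0.91 on the log2 scale. The COP minus DA difference, -0.29 (SE 0.13), did not pass limma's test, with an adjusted p of 0.175.

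Fcgr1a, the high-affinity IgG receptor of monocytes and macrophages, showed no such separation. Probe set 1393038_at read 1101, 1326, 1251 and 1296 in F344 and 1148, 879, 975 and 798 in LEW. COP arrays read 1097, 1072, 1109 and 1169, and DA arrays 932, 814, 993 and 1230.4. The arrays of every pair of strains overlapped. The strain means ran 1243 ± 99.9 in F344, 1111 ± 41.3 in COP, 992 ± 175 in DA and 950.0 ± 151 in LEW (SD, n = 4 each). On the log2 scale COP minus DA was 0.18 (SE 0.12), with a limma adjusted p of 0.36.

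Fcgr2b, the inhibitory IgG receptor of B cells and myeloid cells, was highest in COP and intermediate in DA. Probe set 1371079_at read 669, 529, 619 and 580.1 on F344 arrays, against 579.9, 547, 630.4 and 591 on LEW arrays. It read 1154, 1323, 1333 and 1309 on COP arrays, against 806, 784, 891 and 790.2 on DA arrays. COP lay above every DA array and DA above every F344 and LEW array, whereas F344 and LEW overlapped. Means were 599 ± 59.5 for F344, 587 ± 34.3 for LEW, 1279.9 ± 84.5 for COP and 818 ± 49.4 for DA (SD over 4 arrays of a strain). COP exceeded DA by 1.56-fold, or 0.65 on the log2 scale (SE 0.09), and passed limma's test with an adjusted p of 4.77e-05. F344 minus LEW was 0.03 (SE 0.09), F344 minus COP was -1.10 and LEW minus COP was -1.12 on that scale. The 14 mast cell, basophil and eosinophil genes that passed the filter did not move as 1 group. Their summed signal was 37899 to 41681 in F344 and 32196 to 38695 in LEW, and 63475 to 69324 in COP and 45990 to 56458 in DA. Most of it came from the eosinophil granule genes Prg2 and Epx, singled out after their values were seen. Prg2 averaged 17617 for F344, 16530 for LEW, 37293 for COP and 30135 for DA. With each gene centred on its own mean, so that all 14 count alike, the mean log2 level was -0.0023 to 0.12 in F344 and -0.09 to 0.08 in LEW, and -0.16 to -0.01 in COP and -0.07 to 0.12 in DA. On that scale COP was not the highest strain. Among the defining genes Epx, Mcpt8, Cpa3 and Ms4a2, the lowest signal on any array was 519, for Ms4a2. The part of eosinophils or of the other cells in the Fcgr2b difference was not tested.

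The chains of the IgE receptor passed no COP minus DA test. Fcer1a, its ligand-binding chain on mast cells and basophils, read 201, 177, 146 and 145 in F344 and 140.2, 115, 189.7 and 198 in LEW with probe set 1387713_a_at. COP arrays read 190.4, 229, 227 and 216, and DA arrays 171, 155, 191 and 232. Every pair of strains overlapped for this gene, whose signals lay close to the filter. Means were 168 ± 26.9 for F344, 161 ± 39.9 for LEW, 216 ± 17.8 for COP and 187 ± 33.2 for DA (SD over 4 arrays of a strain). On the log2 scale COP minus DA was 0.21 (SE 0.21), with a limma adjusted p of 0.569. Ms4a2, the beta chain of the receptor and no member, averaged 629 ± 43.2 in COP and 771 ± 22.8 in DA (SD, n = 4 each), and no COP array reached the lowest DA array. The difference was -0.29 on the log2 scale (SE 0.10) with a limma adjusted p of 0.0531. It passed the threshold without LEW replicate 4 and under 4 other settings, among them quantile normalization. For Ms4a2 the F344 minus LEW difference was -0.09 (limma adjusted p = 0.623).

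Fcer1g, the shared signalling chain, followed the order COP, DA, LEW and F344 with small steps. Probe set 1373575_at read 9322, 10085, 10318 and 10253 in F344, against 10609, 11049.8, 10987.5 and 10437 in LEW. It read 11998, 12457, 13369 and 13147.5 in COP, against 10817, 11168.5, 12280.2 and 11751 in DA. All F344 arrays lay below all arrays of the other strains, COP overlapped DA, and DA overlapped LEW. Means were 9994 ± 459 for F344, 10771 ± 296 for LEW, 12743 ± 630.5 for COP and 11504 ± 645 for DA (SD over 4 arrays of a strain). COP minus DA was 0.15 (SE 0.05) on the log2 scale and missed limma's threshold with an adjusted p of 0.0867. F344 minus LEW was -0.11 (SE 0.05) and F344 minus COP was -0.35. Thus Fcgr3a was highest, and the chain it signals through lowest, in the same 4 F344 arrays.

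Fcgrt varied least among the members. Probe set 1387885_at read 5103, 5262, 5187 and 5377 in F344, against 5338, 5185, 4927 and 5359.7 in LEW. COP read 5079, 5187, 5158 and 4975, against 4963, 5059.7, 5093 and 4915 in DA. Strain means ran 5232 ± 116 for F344, 5202 ± 199 for LEW, 5099.8 ± 95.0 for COP and 5008 ± 83.0 for DA (SD over 4 arrays of a strain), and the highest was 1.04-fold the lowest. The F344 and DA arrays did not overlap, with F344 minus DA at 0.06 on the log2 scale, and all other pairs did. COP minus DA was 0.03 (SE 0.05) with a limma adjusted p of 0.788.

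**Figure D2:**
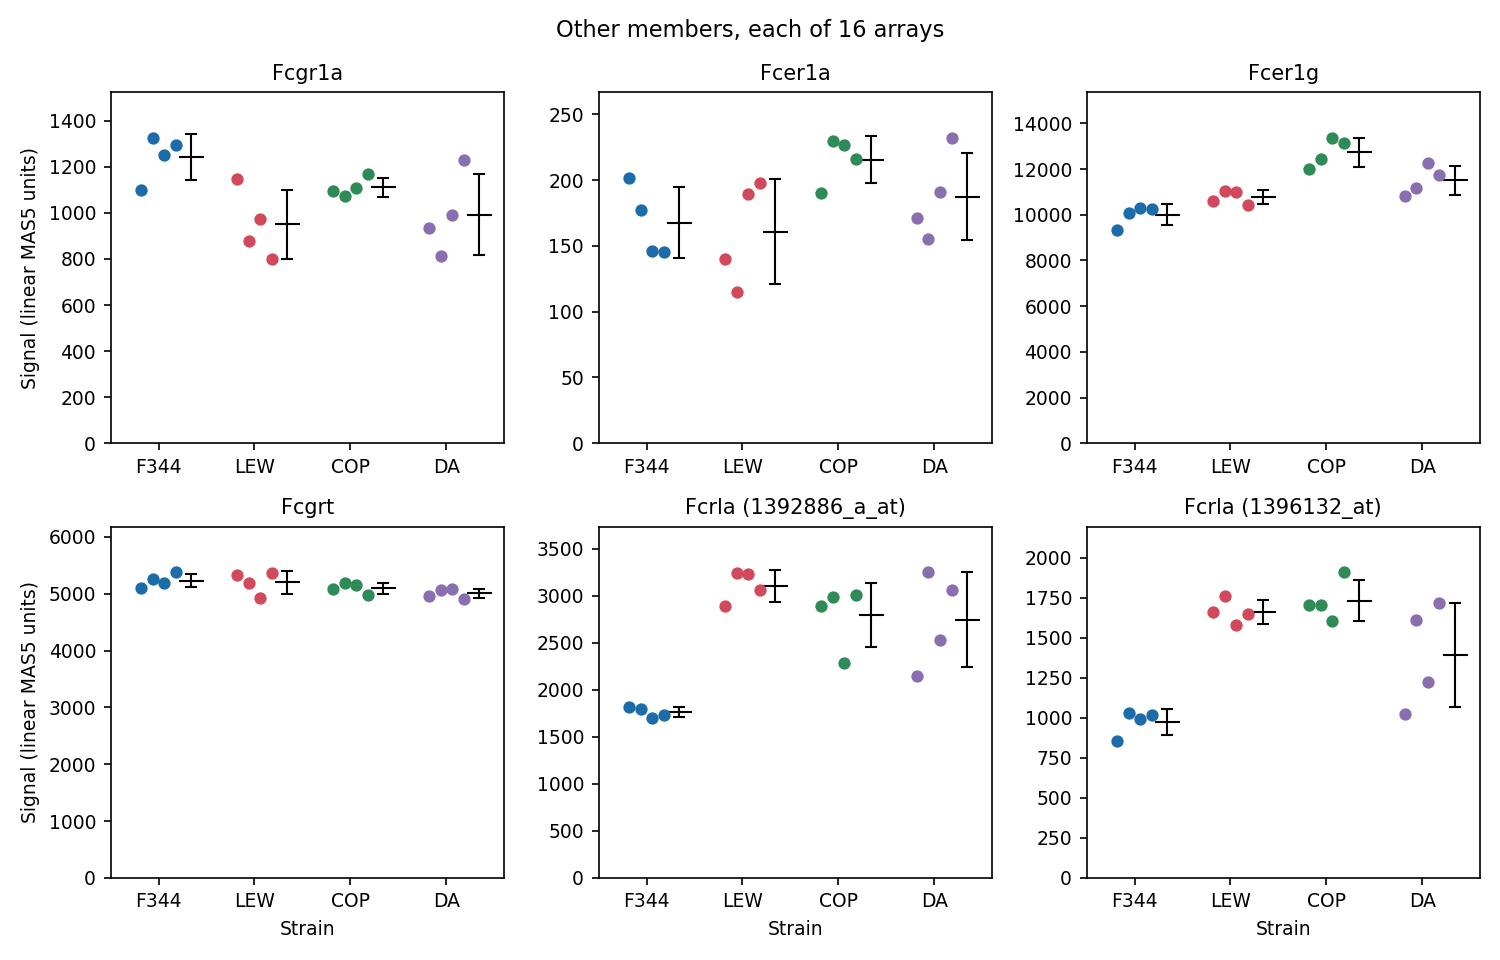
Signals in linear MAS5 units (vertical axes, from 0) of the members not shown in the plot of varying members, with each array as a point and the mean and SD of 4 arrays per strain (F344, LEW, COP, DA on the horizontal axes). Fcgrt stayed between 4915 and 5377 on all 16 arrays, while Fcer1g lay lowest in F344 (9322 to 10318).

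Fcrla, an Fc receptor-like protein kept inside B cells, was low in F344 by both of its probe sets. Probe set 1392886_a_at read 1815, 1798, 1702 and 1734 on F344 arrays, against 2888, 3246.5, 3233 and 3064 on LEW arrays. It read 2895, 2991, 2289 and 3012 on COP arrays, against 2145, 3251, 2529.7 and 3066 on DA arrays. All F344 arrays lay below all others, and LEW, COP and DA overlapped one another. Means were 1762 ± 53.2 for F344, 3108 ± 168 for LEW, 2797 ± 342 for COP and 2748 ± 505 for DA (SD over 4 arrays of a strain). F344 minus LEW was -0.82 (SE 0.11), F344 minus COP -0.66 and F344 minus DA -0.62 on the log2 scale. COP minus DA was 0.04 (SE 0.11), with a limma adjusted p of 0.878.

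The other probe set, 1396132_at, read 855, 1029, 995 and 1014 on F344 arrays, against 1658, 1760.1, 1581 and 1651 on LEW arrays. It read 1706, 1704, 1605 and 1909 on COP arrays, against 1021, 1609, 1223 and 1718 on DA arrays. F344 lay below LEW and COP, and only the lowest DA array reached into its range. Means were 973 ± 80.3 for F344, 1663 ± 73.8 for LEW, 1731 ± 127 for COP and 1393 ± 326 for DA (SD over 4 arrays of a strain). F344 minus LEW was -0.78 (SE 0.12), close to the value of the first probe set. COP minus DA was 0.34 (SE 0.12) with a limma adjusted p of 0.0731. Without DA replicate 2 this difference was 0.42 and its adjusted p 0.0366, and without DA replicate 4 it was 0.45 and 0.0164, so the call depended on single DA arrays.

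The 11 B cell genes that passed the filter ran beside Fcrla in F344 and only in part in the other strains. Their summed signal was 21662 to 22462 in F344, against 34127 to 37321 in LEW. It was 35098 to 40205 in COP, against 25919 to 33679 in DA. COP and DA did not overlap in this sum. COP minus DA of Fcrla was 0.04 with 1392886_a_at and 0.34 with 1396132_at on the log2 scale, and neither passed limma's test. F344 was the lowest strain in this sum as in both Fcrla probe sets. Within DA, replicates 1 and 3 had the lowest sums, 25919 and 26345, and also the lowest Fcrla signals by both probe sets. Among the defining genes measured, Cd79b, Ms4a1 and Blnk, the lowest signal on any array was 1043, for Ms4a1. The part of B cell number in the Fcrla differences was not tested.

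**Figure D3:**
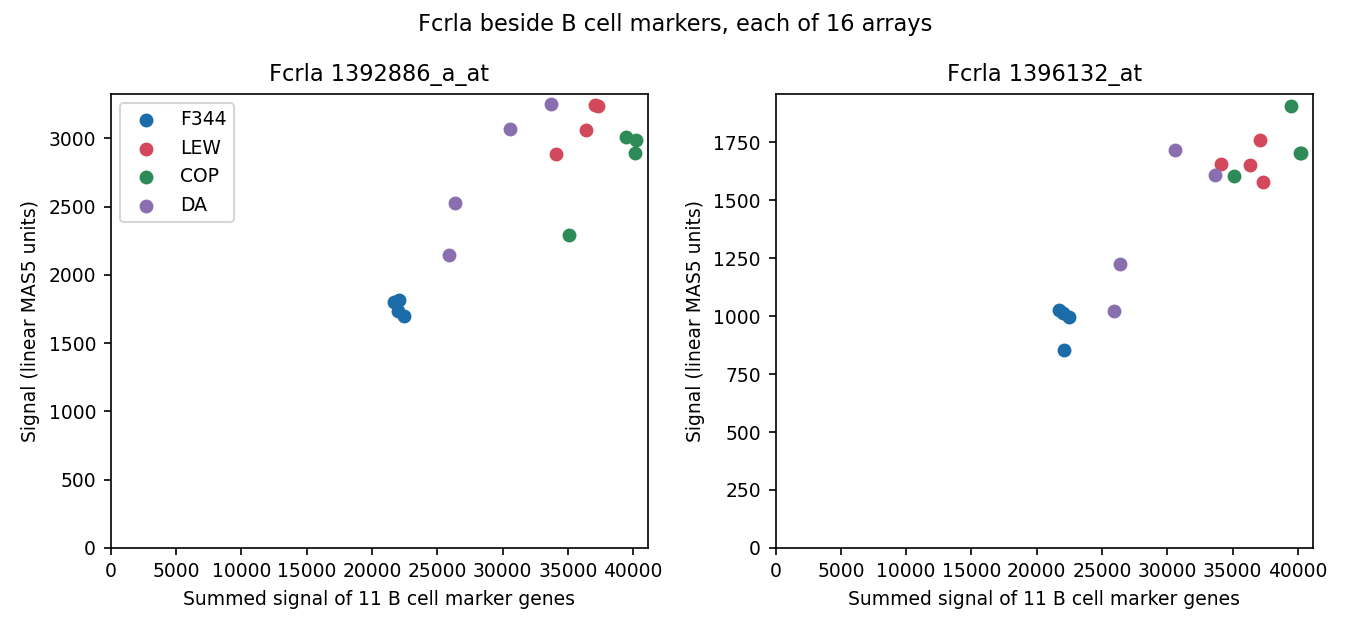
Fcrla signal (vertical axes, linear MAS5 units, 1 panel per probe set) against the summed signal of 11 B cell genes (horizontal axes), each of the 16 arrays being a point coloured by strain. The 4 F344 arrays sit together at the lower left, with B cell sums of 21662 to 22462, and the 4 DA arrays spread between 25919 and 33679.

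Counted together, the arrays of COP and DA did not overlap for 2 of the 10 member probe sets, both higher in COP, where 16.4% of all 18625 probe sets did not overlap. The same 2, Fcrl2 and Fcgr2b, passed limma's test, against 11.9% of all probe sets called in either direction and 5.94% called higher. With 10 members, that share is near the background. The median absolute log2 difference of the members was 0.22, beside 0.14 for all probe sets. F344 and LEW did not overlap for 6 members, 3 higher and 3 lower, beside a background of 18.3%. F344 and COP did not overlap for 5 (background 25.1%), F344 and DA for 6 (21.5%), LEW and COP for 4 (17.4%) and LEW and DA for 2 (13.4%). These last comparisons share arrays with one another and with the contrast known when the genes were chosen, and nothing is read from their counts.

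**Figure D4:**
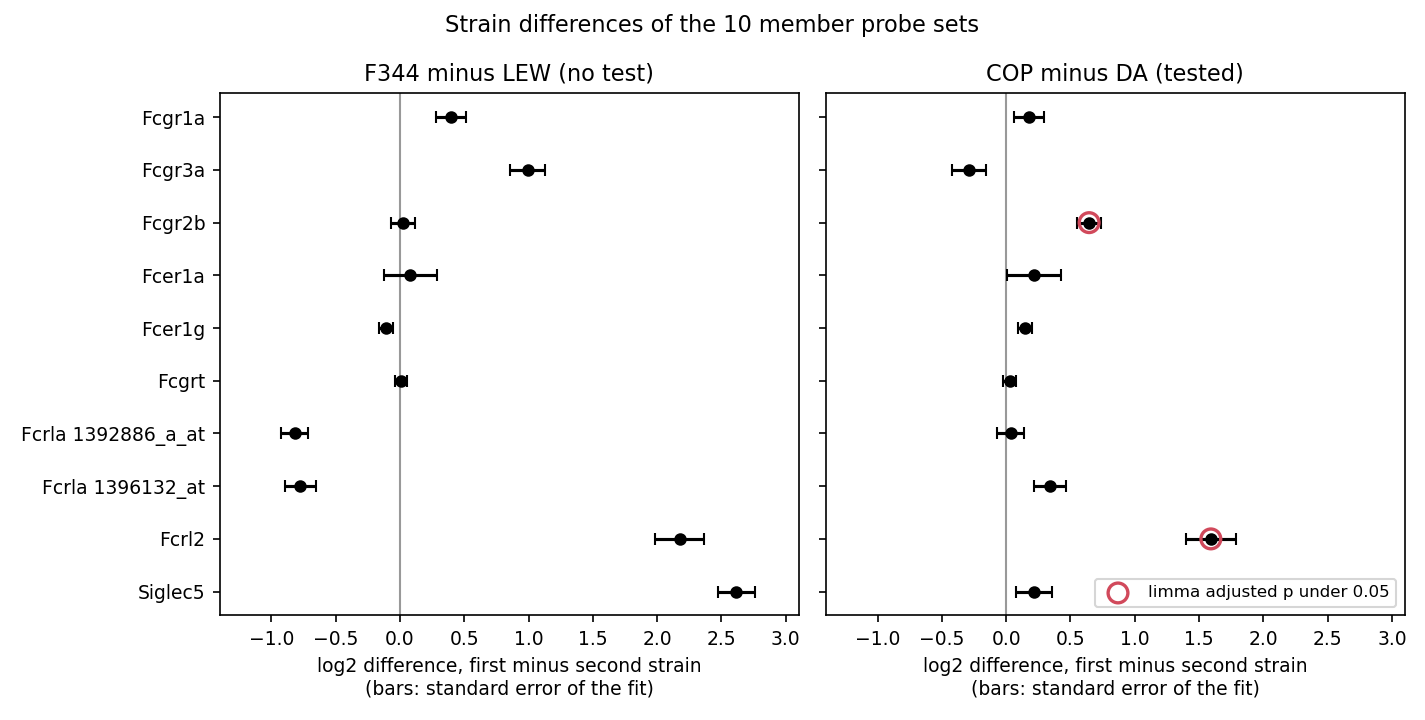
Log2 differences of the 10 member probe sets (rows) for F344 minus LEW, which was not tested, and COP minus DA, which was tested with limma, with bars for the standard error of the fit and rings for an adjusted p under 0.05. Siglec5 reached 2.62 in F344 minus LEW and 0.22 in COP minus DA, whereas Fcrl2 was 2.18 and 1.59.

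The rest of the pathway was read from gene lists, with 1 probe set per gene, and limma called 14.5% of 10548 genes in F344 minus LEW (6.96% higher, 7.54% lower) and 12.2% in COP minus DA (5.74% higher, 6.42% lower). The lists too were chosen with earlier results of these data known, so the calls of their genes are read as descriptions. Of the other Fc receptors, 2 genes passed the filter. Fcmr, the IgM receptor, averaged 1391 ± 83.8 in F344 and 1683 ± 38.8 in LEW (SD, n = 4 each), a difference of -0.28 on the log2 scale (limma adjusted p = 0.0184). Without F344 replicate 3 its adjusted p was 0.0748. Of 3 other Siglecs, Siglec10, an inhibitory B cell receptor, averaged 469 ± 112 in F344 and 721 ± 157 in LEW, and 885 ± 75.7 in COP and 545 ± 91.5 in DA. It was lower in F344 by limma (log2 -0.63, adjusted p = 0.0191) and higher in COP (0.71, adjusted p = 0.00993). The F344 call was lost without F344 replicate 4 (adjusted p = 0.0771) and without LEW replicate 2 (0.0794). Its F344 and LEW arrays overlapped. Siglec10 thus had the lower mean in F344, where Siglec5 was the higher. In COP minus DA both differences were positive, at 0.71 for Siglec10 and 0.22, not called, for Siglec5.

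Among 5 genes listed with Fcer1g as ITAM adaptors, 3 were higher in COP than in DA by limma. Hcst, 1 of these 3, is an adaptor without an ITAM motif. The median log2 difference of the list was 0.34, the value of Hcst, beside 0.00 for all genes. Between F344 and LEW 1 was higher and 2 were lower, Hcst among the lower (log2 -0.29, limma adjusted p = 0.0272). Cd3g, a T cell receptor chain, averaged 1742 ± 108 in F344 and 848 ± 62.6 in LEW, a log2 difference of 1.04 (adjusted p = 2.58e-05), and its COP minus DA difference was 0.59 (adjusted p = 0.00899). Cd79b, a chain of the B cell receptor, averaged 1210 ± 94.2 in F344 and 2111 ± 154 in LEW (log2 -0.80, adjusted p = 7.87e-06), and rose in COP over DA by 0.45 (adjusted p = 0.00499). The lower count was 1 without F344 replicate 2 or 3 or LEW replicate 1 or 2.

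Of 34 signalling genes downstream of activating receptors, 8 were higher and 2 lower in COP than in DA by limma. Shc1, an adaptor of many receptors, fell the most: it averaged 1907 ± 99.6 in COP and 4301 ± 302 in DA, a log2 difference of -1.17 (adjusted p = 3.25e-11). Of the oxidase subunits, Ncf1 averaged 452 ± 58.1 in COP and 223 ± 73.0 in DA (1.08, limma adjusted p = 0.00578). Ncf4 averaged 2017 ± 375 in COP and 988 ± 39.7 in DA (1.01, adjusted p = 1.09e-04). Cyba was higher in COP by 0.23 (adjusted p = 0.0453), a call lost under 16 of 26 alternatives. Cybb, with a difference of 0.20 (adjusted p = 0.0647), did not pass. Between F344 and LEW 6 of the 34 were lower and the list median was -0.05. Lat averaged 479 ± 59.2 in F344 and 675 ± 74.8 in LEW (-0.50, limma adjusted p = 0.0135). It was also lower in COP than in DA (-0.51, adjusted p = 0.0128). Syk, the kinase recruited by Fcer1g, was lower in F344 by limma (-0.29, adjusted p = 0.0235), a call lost under 5 of 26 alternatives. The lower COP count was 1 without COP replicate 1 or DA replicate 1. The F344 count was 2 without F344 replicate 3 or LEW replicate 2, and to 3 without F344 replicate 4 or LEW replicate 1 or 3.

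Of 18 inhibitory receptors and phosphatases, 2 were higher and 5 lower in F344 than in LEW. Pecam1, an ITIM receptor of endothelium and leukocytes, averaged 1035 ± 111 in F344 and 679 ± 102 in LEW (log2 0.61, limma adjusted p = 0.000495), and 662 ± 53.2 in COP and 972 ± 85.0 in DA (-0.55, adjusted p = 0.00175). Lilrb4 was higher in F344 by 0.50 (adjusted p = 0.00497). Inpp5d, the phosphatase that Fcgr2b recruits, was lower in F344 by limma, with a log2 difference of -0.39 (adjusted p = 0.00688), and its COP minus DA difference of 0.16 did not pass (adjusted p = 0.297). The lower count was 2 without LEW replicate 1 or 3, and 3 without any single F344 array or LEW replicate 2.

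Of 7 immunoglobulin and FcRn partner genes, 2 were higher and 1 lower in F344 than in LEW. Cd74, which chaperones MHC class II and can bind Fcgrt, averaged 7038 ± 299.8 in F344 and 4509 ± 304 in LEW (log2 0.64, limma adjusted p = 3e-07), and 4585 ± 214 in COP and 6138 ± 459 in DA (-0.42, adjusted p = 1.12e-04). Rab4a, a GTPase of endosome recycling, was higher in F344 by 0.48 (adjusted p = 3.96e-04). B2m, the partner chain of Fcgrt, had differences of 0.13 and -0.13 in the 2 comparisons, each with an adjusted p of 0.152. The higher count was 4 without LEW replicate 4. The lower count was 0 without F344 replicate 1, 2 or 4 or LEW replicate 2 or 3, and 2 without DA replicate 1 or 3.

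Marker genes of the cells that carry these receptors differed between strains too. Of 11 B cell genes 9 were lower in F344 than in LEW, with a median log2 difference of -0.53, and 5 were higher in COP than in DA, with a median of 0.28. Vpreb3, of precursor B cells, averaged 948 ± 173 in F344 and 4971 ± 144 in LEW (-2.41, limma adjusted p = 2.81e-11), and 3413 ± 162 in COP and 1430.2 ± 336 in DA (1.28, adjusted p = 6.6e-07). Pou2af1, a B cell coactivator, was lower in F344 by limma (-0.79, adjusted p = 8.23e-06). Of 14 monocyte and macrophage genes 7 were higher in F344 than in LEW, among them Mertk, a receptor for dying cells (0.61, adjusted p = 0.0038), and the mean centred log2 level of the 14 did not overlap, at 0.0059 to 0.10 in F344 and -0.16 to -0.03 in LEW. Their summed signals overlapped, at 66371 to 69444 in F344 and 65098 to 70495 in LEW. The lysozyme gene Lyz2, singled out after its values were seen, made up most of that sum and averaged 34807 in F344 and 39651 in LEW. Between COP and DA 3 of them were higher and 3 lower. Ccr2, the monocyte chemokine receptor, was higher in COP by 1.25 (adjusted p = 9.38e-06), and Cd163, a scavenger receptor of macrophages, was lower, at -0.50 (adjusted p = 0.00309). Without COP replicate 1 the higher count was 1.

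Of 14 mast cell, basophil and eosinophil genes, 2 were higher and 1 lower in F344 than in LEW, and 2 were higher and 2 lower in COP than in DA. Mcpt8, a basophil protease, averaged 5870 ± 330 in F344 and 3533 ± 262 in LEW (log2 0.73, limma adjusted p = 1.82e-07). Epx, the eosinophil peroxidase, averaged 16747 ± 1398 in COP and 8963 ± 1643 in DA (0.92, adjusted p = 2.8e-05). Tpsab1 went the other way, with 374 ± 50.4 in F344 and 609 ± 134 in LEW (-0.69, limma adjusted p = 0.00914). It was also lower in COP than in DA (-0.62, adjusted p = 0.0206), as was Hdc (-0.56, adjusted p = 0.0158). Leaving out COP replicate 1 or 2 lowered both COP counts to 1, COP replicate 3 or DA replicate 3 the lower one, and DA replicate 1 or 2 the higher one. Of 13 neutrophil genes, 4 were lower in F344 than in LEW, and 5 were higher and 1 lower in COP than in DA. Lcn2, a granule protein, averaged 834 ± 30.3 in F344 and 12527 ± 651 in LEW (-3.91, adjusted p = 8.34e-20), and 17160 ± 1521 in COP and 1023 ± 42.2 in DA (4.06, adjusted p = 3.79e-20). S100a8 (-0.09, limma adjusted p = 0.384) and S100a9 (-0.06, adjusted p = 0.639) did not pass in F344 minus LEW. The higher COP count was 3 without COP replicate 1. The lower count, 1 gene at the edge of the threshold, was 2 without DA replicate 1 and 0 without any other single array except LEW replicate 1 or 4.

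Of 6 T and natural killer cell genes 2 were higher in F344 than in LEW and 3 higher in COP than in DA. Il2rb, a chain of the interleukin-2 receptor, was higher in F344 by 1.07 (limma adjusted p = 0.00342), and Nkg7, a cytotoxic granule gene, was higher in COP by 0.59 (adjusted p = 8.08e-05). Of 4 dendritic cell genes 1 was lower in F344 than in LEW, Itgax, with a log2 difference of -1.02 (adjusted p = 8.5e-09). Of 10 osteoblast genes 1 was higher in each comparison, the one in COP being Mepe, an osteocyte matrix protein (0.63, adjusted p = 1.64e-04). The F344 count was 0 without F344 replicate 1 or 2 or LEW replicate 1, 2 or 3, and 3 without LEW replicate 4. The COP count was 2 without LEW replicate 1 or 4, COP replicate 4 or DA replicate 2. Among 6 osteoclast genes limma called 0 in either comparison, with 3 and 2 at an unadjusted p under 0.05 in F344 minus LEW and COP minus DA. Among 7 cartilage genes it also called 0, with 2 and 1 at that level. Leaving out 1 array brought at most 2 calls to either list in a comparison and direction.

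**Figure D5:**
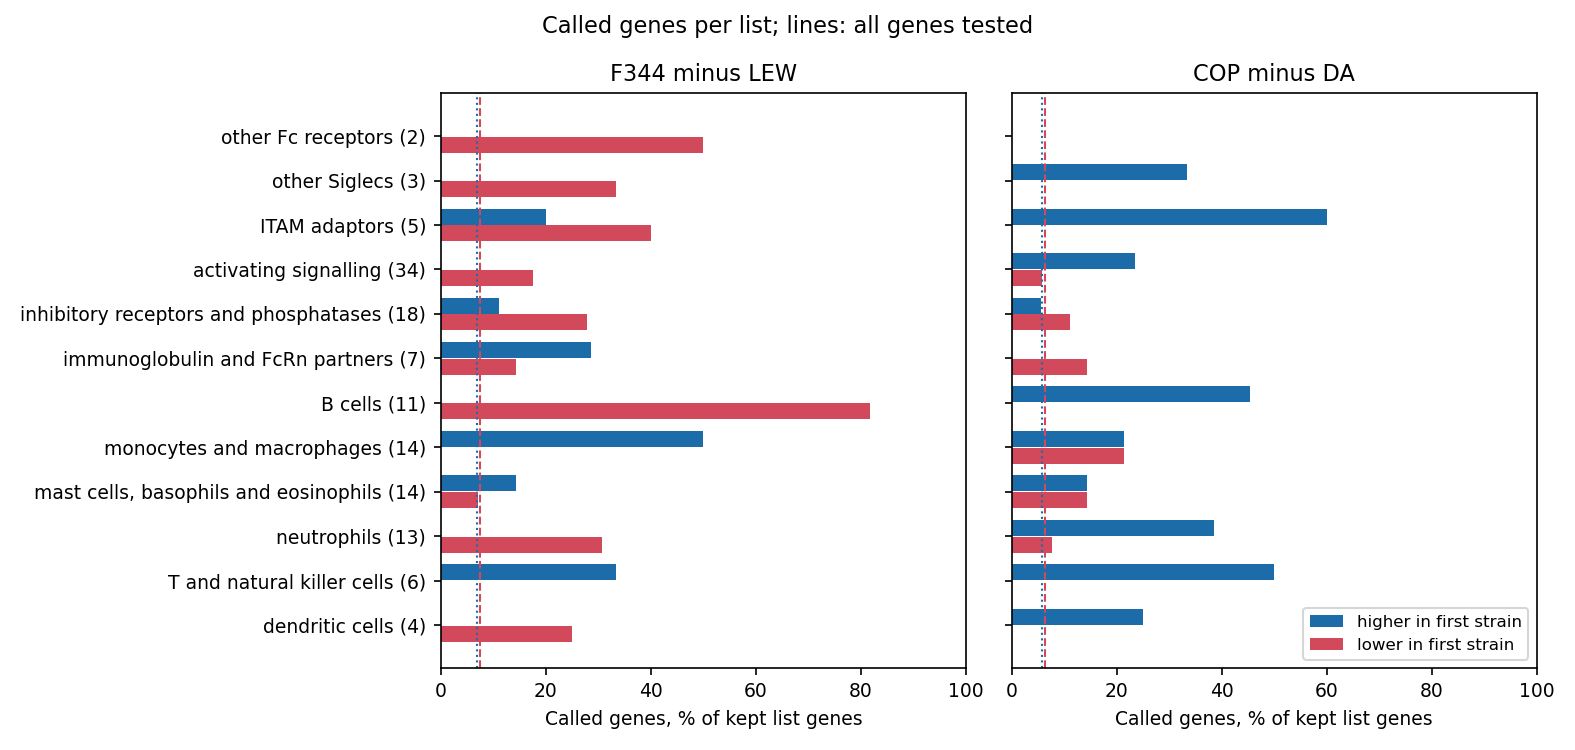
Percent of the genes of each list (rows, with the number of genes tested) that limma called higher or lower at an adjusted p under 0.05, for F344 minus LEW and COP minus DA, with vertical lines for all 10548 genes tested. B cell genes were called lower in F344 in 9 of 11 cases and higher in COP in 5 of 11.

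By position, the members fell on 3 chromosomes in the RefSeq order of GRCr8. Siglec5 and Fcgrt lie on chromosome 1, Fcrl2 and Fcgr1a on chromosome 2, and Fcrla, Fcgr2b, Fcgr3a, Fcer1g and Fcer1a on chromosome 13. The 3 nearest genes on each side that had a measured probe set came to 37 distinct genes. Some were far off: 101 genes lay between Fcgr3a and Sdhc, the first measured after it, and 42 between Fcgr1a and Hjv. Of these, 3 were higher and 5 lower in F344 than in LEW, and 6 were higher and 3 lower in COP than in DA, beside the 14.5% and 12.2% of all genes. Without F344 replicate 4 or LEW replicate 3 limma called 4 in F344 minus LEW. Siglec10 is the gene next after Siglec5, with 0 genes between them. Zfp715, next before Siglec5, had differences of 0.07 (limma adjusted p = 0.723) and 0.20 (adjusted p = 0.25) in F344 minus LEW and COP minus DA and passed neither test.

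Near Fcrl2 lies Cd5l, a secreted scavenger-like protein of macrophages, with 1 gene between them. It averaged 1999.5 in F344 and 3029 in LEW (log2 -0.59, limma adjusted p = 1.31e-05), and 1805 in COP and 2272 in DA (-0.33, adjusted p = 0.00649). In both comparisons its sign was opposite to that of Fcrl2. Mnda, an interferon-inducible myeloid gene with 9 genes between it and Fcer1a, averaged 739 in F344 and 315 in LEW (1.23, adjusted p = 1.04e-06), and 585 in COP and 403 in DA (0.53, adjusted p = 0.0111). On the other side of the Fc receptor genes of chromosome 13, Atf6, a stress sensor of the endoplasmic reticulum, was lower in COP than in DA (-0.48, adjusted p = 0.00179).

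The genes whose log2 signals over the 16 arrays were most like each member were taken by Pearson's r, as a description, since all values share the same arrays. Each r is the highest among the genes past the filter and includes the strain differences, also those the members were treated as selected on. A gene low or high in the same strains as a member therefore ranks high. For Siglec5 they were the MHC class I genes RT1-CE16 (r = 0.977) and RT1-T24-4 (0.97) and the oxidoreductase-like Cryzl2 (0.97). RT1-T24-4 averaged 2679 for F344, 269 for LEW, 2948 for COP and 2976 for DA. For Fcrl2 they were Arl6ip5 (0.936), Ifitm1 (0.933) and Creb1 (0.933), and Ifitm1, an interferon-induced membrane protein, averaged 6177 for F344, 3144 for LEW, 6383 for COP and 3418 for DA. Fcgr3a was nearest to LOC102548586 (0.942), the quinone reductase Nqo2 (0.936) and the prostaglandin reductase Ptgr2 (0.931). For Fcgr2b they were Mx2, an interferon-induced GTPase (0.972), Epx (0.965) and Serpinb10 (0.958), with Mx2 averaging 67.3 for F344, 69.2 for LEW, 1205 for COP and 222 for DA. The F344 and LEW means of Mx2 were below the filter signal of 174.

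Fcer1g was most like Mmp8, the neutrophil collagenase (r = 0.952), Rab27a (0.946) and haptoglobin Hp (0.937). The Fcrla probe set 1396132_at was most like Cd79b (0.943), Klhl6 (0.928) and Blnk (0.92), the last being a B cell linker, and Cd79b and Blnk are in the B cell list. The probe set 1392886_a_at was most like Rnps1 (0.916), Arf6 (0.916) and Trib2 (0.915). Fcgr1a reached 0.863 with Rgs4, 0.86 with Atp5me and 0.854 with Klhl21. Fcer1a reached 0.811 with Sybu and 0.808 with Nop14 and Gng11, and Fcgrt reached 0.777 with Dlc1 and Tspan12 and 0.773 with Phospho2.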

How the data were processed

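The authors deposited linear MAS5 intensity values for 31099 probe sets on 16 arrays, scaled so that each array's mean without the outer 2% at either end was close to 1000, and MAS5 is named in the submitters' processing notes. The array's genome build is not given in the sources used here. All 16 columns of values were matched to a sample by title.

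For this work, 57 control probe sets were left out, 255 values below 1 were set to 1, and log2 values were fitted without a pseudocount. Probe sets with a mean log2 signal under the 40th percentile (signal 174) were dropped. All arrays entered a model with a mean for each strain, run with limma 3.58.1 under R 4.3.3 (12 residual degrees of freedom, trended variance), with two-sided moderated tests and Benjamini-Hochberg adjustment over the 18625 probe sets at 0.05. Strain means and SDs are of linear signals, and a gene with several probe sets in a list was taken by the one with the highest mean. Symbols came from the platform annotation: 20826 probe sets had 1 symbol, 436 several and 9780 none, and several-symbol probe sets were named for no gene. Names and order of genes came from RefSeq, assembly GRCr8, which may differ from the array's build, so only chromosome and order were used. A neighbour was the nearest gene with a kept single-symbol probe set.

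The members and lists were chosen with earlier results of these data known. Named genes were all members, up to 4 called genes of each receptor or signalling list and up to 3 of each marker list, by the largest absolute log2 difference, measured neighbours, and the 3 genes most alike to each member over the arrays and over deviations from strain means. List genes outside that order, such as Cyba, Cybb, Syk, B2m, Hdc and S100a8, were named for their function or after their values were seen. Neighbours were named for their closeness to a member and, otherwise, after their values were seen. The fit was tested on simulated data. Alternatives varied the scaling, floor, filter, variance model, arrays fitted and replicate block, and left out each array. Arrays with the same replicate number did not deviate together: over 24 pairs r lay between -0.173 and 0.0875. Figures were drawn with matplotlib 3.10.9.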

Additional observations from a re-analysis of the deposited data

Results flagged for a closer look

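Of 40 groups of 4 arrays, 1 per member probe set and strain, 2 had an array far from the other 3, where chance flags about 1 in 20. For Fcgr2b, COP replicate 1 read 1153.94 while the other COP arrays read 1309 to 1333, yet all 4 lay above every DA array. For Fcrla, COP replicate 3 read 2288.7 with probe set 1392886_a_at while the other COP arrays read 2895 to 3012. The same array had the lowest B cell sum of the COP arrays, 35098, and the lowest COP signal of the other Fcrla probe set, 1605.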

How the results depend on the processing

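Under 26 alternatives, 16 of them leaving out 1 array each, Fcrl2 and Fcgr2b kept their COP over DA calls wherever they were tested, with log2 differences of 1.47 to 1.70 (limma adjusted p 1.53e-06 to 6.44e-05) and of 0.62 to 0.69 (3.79e-05 to 3.43e-04). With the filter at the 60th percentile the number of members called was 1, because Siglec5, Fcrl2, Fcgr3a and Fcer1a were no longer among the probe sets tested. Leaving out 1 array gave 2 to 3 called members. Quantile normalization brought Fcer1g to an adjusted p of 0.021, with a difference of 0.18. The COP minus DA difference of Fcrla 1392886_a_at, not called, was negative without DA replicate 1 (-0.08) or without COP replicate 4. The F344 minus LEW differences of Fcgr2b, Fcer1a and Fcgrt, 0.03, 0.08 and 0.01, changed sign when single F344 or LEW arrays were left out. With the replicate number as a block 3 members were called, Fcrla 1396132_at among them (adjusted p 0.0416), although the numbers did not pair the arrays: in 7 of 24 cases an array's nearest array of another strain had its own number. The block gave 8 neighbour calls in F344 minus LEW and 9 in COP minus DA. Over all probe sets the calls numbered 2567 for F344 minus LEW, with 2177 to 3270 under other settings and 1907 to 2786 when 1 array was left out. They numbered 2211 for COP minus DA, with 1852 to 2254 and 1524 to 2462. Neighbour calls for F344 minus LEW ranged between 4 and 9 when 1 array was left out. Of 102 called differences of list and neighbour genes, 63 kept their call under every alternative, 39 lost it under at least 1 and 0 changed sign. Counts in lists moved over 1.5 times in 144 of 1560 comparisons of a list and setting. The number of arrays limits the precision, and Fcer1a, near the filter, is the least certain member.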

Other observations

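Likeness was also read within strains, from the deviations of each array from its strain mean, as a description over 16 arrays that share their RNA and scaling. Each r is the highest among the genes past the filter, and the r that unrelated genes would reach was not computed. The genes nearest to the Fcrla probe set 1392886_a_at were Klhl6 (r = 0.907), the immunoglobulin light chain gene Iglc1 (0.902) and Tifa (0.84). Fcgr1a was nearest to the ATP synthase subunits Atp5f1b (0.902), Atp5f1c (0.89) and Atp5me (0.885). For Siglec5 they were Snapc4 (0.915), Zdhhc4 (0.853) and Hsd17b1 (0.85), none of them among the genes most like it over all arrays. Fcrl2 was nearest to Mrps6 (0.899), Dpm3 (0.878) and Slamf9 (0.866), and Fcgr3a to Ttll7 (0.875), Trmt9b (0.867) and Igsf6 (0.867). Fcgr2b was nearest to Caap1 (0.842), the interferon receptor chain Ifnar1 (0.837) and Ppp1r3d (0.815). Fcer1g was nearest to Ptgr2 (0.893), Fez1 (0.857) and Bub3 (0.845), and Fcgrt to Mettl9 (0.878), Evi5l (0.863) and Zbtb24 (0.821). The Fcrla probe set 1396132_at was nearest to Magee1 (0.913), Dnpep (0.882) and Mdm2 (0.88), and Fcer1a to Fbxl4 (0.848), Fanca (0.843) and C2h5orf22 (0.824).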
